A study of Mus musculus with 45 samples.

Results

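The interferon-induced Ifit region of mouse chromosome 19 was examined for acetylation of histone H3 at lysine 9 (H3K9ac) in hippocampi from 2 transgenic mouse models of neurodegeneration. The region is a stretch of 300 kb on the mm9 build, named for Ch25h, Lipa and the Ifit family. Every H3K9ac domain (a called stretch of enrichment) that overlaps it was taken, which gave 17 of the 44165 domains in the series. They are numbered here 1 to 17 along the chromosome. The region, and domain 15 within it, had been picked out from the comparison of CK-p25 with CK mice at 2 weeks. That comparison is therefore described without a test.

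H3K9ac was profiled by chromatin immunoprecipitation and sequencing in 8 groups. Transgenic MAPT P301S mice, which carry a mutant human tau and are called tau mice here, gave 3 libraries at 11 months of age, against 3 libraries of wild type mice of the same age. At 6 months there were 2 tau and 3 wild type libraries. The mice of 11 months were male and those of 6 months female, so age and sex cannot be told apart. The labels do not name the promoter that drives the tau transgene. Double-transgenic CK-p25 mice, a model in which neurons of the forebrain can be induced to make the Cdk5 activator p25, were compared with CK littermates 6 weeks and 2 weeks after induction, with 3 libraries in each of these 4 groups. All were female, aged 4.5 months at 6 weeks and 3.5 months at 2 weeks. The tau and CK-p25 series used different antibody lots and were scaled and fitted apart, so levels are not compared between them. Whether every library came from its own animal is not stated in the labels, and p-values measure the spread between libraries.

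H3K9ac marks active promoters and enhancers. The Ifit genes encode interferon-induced proteins with tetratricopeptide repeats. In uninfected tissue they are usually weakly transcribed. Type I interferon induces them through interferon-stimulated response elements in their promoters, and the proteins made then bind viral RNA and limit its translation. Ch25h makes an oxysterol with antiviral activity and is itself induced by interferon in mouse macrophages. Lipa encodes the lysosomal acid lipase, which splits cholesteryl esters and triglycerides, and Slc16a12 encodes a membrane transporter of the monocarboxylate transporter family.

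In the RefSeq annotation of GRCm38 the protein-coding genes of the stretch run in the order Ch25h, Lipa, Ifit2, Ifit3, Ifit1bl1, Ifit3b, Ifit1bl2, Ifit1 and Slc16a12. The domains are on mm9, and positions of the 2 builds cannot be set against each other here. No domain was therefore given a gene, and the hippocampal tissue could not be checked against marker genes. The promoters below set 2 Ifit genes whose upstream window matches the motif given next beside Ifit2 and Ch25h, whose windows hold no exact match. Each is the 250 bases before the RefSeq gene start, 5′ to 3′ on the strand of the gene, with capitals marking each match to GAAANNGAAA, the core of the interferon-stimulated response element, or to its reverse complement TTTCNNTTTC.
Ifit1: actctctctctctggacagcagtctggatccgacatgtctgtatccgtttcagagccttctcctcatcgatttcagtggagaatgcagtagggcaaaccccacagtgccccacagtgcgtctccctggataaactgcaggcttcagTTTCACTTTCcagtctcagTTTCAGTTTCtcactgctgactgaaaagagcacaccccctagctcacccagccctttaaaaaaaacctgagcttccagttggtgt
Ifit3: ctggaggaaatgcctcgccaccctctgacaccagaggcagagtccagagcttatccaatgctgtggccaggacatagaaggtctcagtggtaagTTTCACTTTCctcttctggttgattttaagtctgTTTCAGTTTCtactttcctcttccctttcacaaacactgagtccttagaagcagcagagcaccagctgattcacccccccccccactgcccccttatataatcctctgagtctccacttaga
Ifit2: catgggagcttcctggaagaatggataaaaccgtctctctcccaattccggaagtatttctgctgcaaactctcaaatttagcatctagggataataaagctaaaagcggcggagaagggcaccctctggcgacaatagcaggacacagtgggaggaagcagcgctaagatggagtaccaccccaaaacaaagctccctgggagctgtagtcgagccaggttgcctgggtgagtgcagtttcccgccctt
Ch25h: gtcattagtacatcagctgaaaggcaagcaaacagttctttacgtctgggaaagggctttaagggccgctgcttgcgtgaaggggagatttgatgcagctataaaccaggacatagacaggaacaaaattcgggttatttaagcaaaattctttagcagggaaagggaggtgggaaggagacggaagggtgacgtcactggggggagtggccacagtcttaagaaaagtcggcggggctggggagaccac
Their GRCm38.p6 positions are chr19:34640639-34640888 on the plus strand for Ifit1, chr19:34583279-34583528 on the plus strand for Ifit3, chr19:34550444-34550693 on the plus strand for Ifit2 and chr19:34475149-34475398 on the minus strand for Ch25h. Counted from the gene start, the 2 matches of Ifit1 begin at bases -104 and -85, and those of Ifit3 at bases -156 and -122. Of the 6 Ifit genes, 5 held the motif on either strand and 4 held 2 or more matches in a window. Of all 27025 genes with a promoter window, 3.46% held the motif and 0.211% held 2 or more matches in a window. Ifit2, Ch25h, Lipa and Slc16a12 had no match in these 250 bases. That does not show that they lack an interferon element, which may lie elsewhere or differ from this exact motif. The upstream windows of Ifit1 and Ifit1bl2 overlap on opposite strands and share their matches. The windows of Ifit3 and Ifit3b share most of their sequence at an offset, with a few differing bases. Both hold the same 2 matches, at bases -156 and -122 in Ifit3 and -188 and -154 in Ifit3b. No source used here states how reads that map to several places were handled, so counts over such similar copies are uncertain.

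The 17 domains were 109 to 1752 bp wide with a median of 872 bp, against 776 bp for all domains, and covered 5.34% of the region. With gaps of up to 3000 bp bridged, they fell into 7 runs. Domain 1 stood alone at chr19:34548874-34550623. Run 2 held domains 2 to 4 (chr19:34597428-34602317), run 3 domains 5 to 7 (chr19:34624421-34628331) and run 4 domains 8 to 12 (chr19:34657582-34661080). Run 5 held domains 13 and 14 (chr19:34681767-34684357) and run 6 domains 15 (1455 bp wide) and 16 (chr19:34716217-34717089), which lie 221 bp apart. Domain 17 stood alone at chr19:34735594-34737272. Runs 3 to 6 are multi-domain patches separated by gaps of 20686 to 30183 bp.

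Levels are given as CPM, read counts scaled to the depth of each library with TMM factors. Libraries of the tau series held 4.10 to 6.18 M reads in domains, those of the CK-p25 series 0.996 to 4.13 M, and 160 to 1373 reads per library fell in the region. A test was made on 16 of the 17 domains in the tau series and on 15 in the CK-p25 series, after a filter on low counts. Domain 11 in the tau series, and domains 9, 10, 11, 12 and 14 in the CK-p25 series, passed that filter only with the help of tau or CK-p25 libraries. The cross correlation listed in the labels, which reflects how strongly a library is enriched, was 0.228 ± 0.0263 in tau and 0.313 ± 0.0250 in wild type libraries at 11 months (SD, n = 3 each), with no overlap. It averaged 0.131 in CK-p25 and 0.0928 in CK libraries at 6 weeks, where the groups overlapped.

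In wild type mice of 11 months, acetylation per kilobase ranged from 2.09 CPM per kb in domain 16 to 27.3 CPM per kb in domain 4. Per kilobase, domain 4 (chr19:34600566-34602317) had the highest level of the region in 7 of the 8 groups. The exception was CK-p25 mice at 2 weeks, where domain 4 had 27.2, domain 15 28.8 and domain 10 37.9 CPM per kb. Domain 10 is only 109 bp wide, and its 37.9 rests on 11 to 18 reads per library. The region was picked from the comparison at 2 weeks. Domain 4 held 52.3 ± 0.603 CPM in tau and 47.8 ± 1.47 CPM in wild type mice of 11 months (SD, n = 3 each), and 49.4 ± 4.76 CPM in CK-p25 and 43.4 ± 7.81 CPM in CK mice at 6 weeks (SD, n = 3 each). The domains of runs 4, 5 and 6 had 2.09 to 9.58 CPM per kb in wild type mice of 11 months. Domain 15 had 15.4 CPM per kb in tau and 6.38 CPM per kb in wild type mice of 11 months.

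At 11 months H3K9ac was higher in tau than in wild type hippocampus at 7 of the 8 domains tested in runs 4, 5 and 6, and at domain 1. Of the 16 domains tested, 8 were called higher and 0 lower at an adjusted p under 0.05 (edgeR's quasi-likelihood test, two-sided, adjusted over 44105 domains), where 4.40% of all domains were called higher. The median log2 change of the 16 was 0.77, with a range of -0.24 to 2.05, beside 0.01 over all domains. Every tau library lay above every wild type library in 12 of the 16, where 11.2% of all domains did so. Domain 11, counted among the 8 and the 12, passed the filter on low counts only with the help of tau libraries. In bulk tissue, more cells that carry the mark and more of the mark per cell cannot be told apart.

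**Figure D1:**
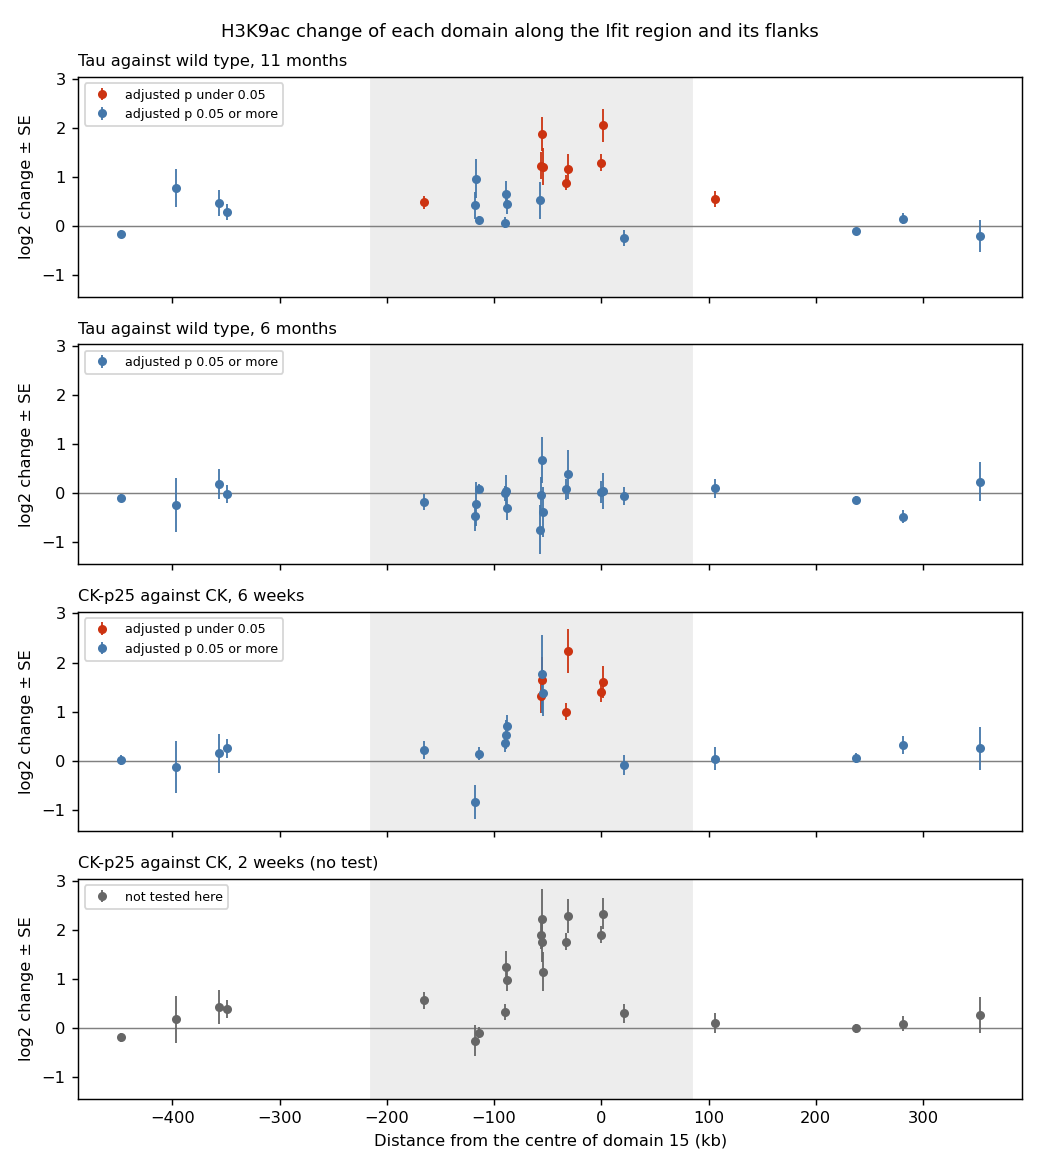
Log2 change of H3K9ac with its standard error (y axis) for each tested domain against its distance in kb from the centre of domain 15 (x axis), one panel per comparison. The shaded band is the region and the points outside it are its flanks. In tau mice of 11 months and CK-p25 mice at 6 weeks the called domains of runs 4, 5 and 6 stand between 0.88 and 2.24. Run 6 is the run of domain 15. The 2.24 is domain 14 at 6 weeks, which was tested only through its CK-p25 libraries. At 6 months no domain was called.

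Domain 15 had 24.6, 15.8 and 26.9 CPM in the 3 tau libraries of 11 months, against 9.55, 9.34 and 8.94 CPM in the wild type libraries. All 3 tau libraries were above the wild type ones, with tau replicate 2 the nearest to them. The log2 change was 1.29 ± 0.17 (SE; edgeR adjusted p = 1.05e-08), a 2.45-fold difference. Its neighbour in the run, domain 16 (chr19:34716217-34717089), had 5.66, 4.12 and 12.7 CPM in tau libraries, against 1.98, 1.56 and 1.95 CPM in wild type libraries. Its tau libraries were spread more widely than the wild type ones, with replicate 3 far above the other two. The log2 change was 2.05 ± 0.33 (edgeR adjusted p = 3.22e-06), the greatest of the 16.

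In run 5, domain 13 (chr19:34681767-34683427) had 20.3, 19.6 and 26.7 CPM in tau libraries, against 11.7, 11.3 and 13.3 CPM in wild type libraries. The groups did not overlap, and the log2 change was 0.88 ± 0.15 (edgeR adjusted p = 9.81e-06). Domain 14 (chr19:34683720-34684357) had 5.11, 5.33 and 6.62 CPM in tau libraries, against 2.14, 3.11 and 2.44 CPM in wild type libraries. Its tau libraries were again all higher, with a log2 change of 1.16 ± 0.30 (edgeR adjusted p = 0.00469).

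In run 4, domain 9 (chr19:34658165-34659036) had 5.29, 5.57 and 11.6 CPM in tau libraries, against 3.13, 3.89 and 2.76 CPM in wild type libraries, again with tau replicate 3 the highest. Its log2 change was 1.23 ± 0.27 (edgeR adjusted p = 0.000709). Domain 11 (chr19:34660136-34660522) had 5.11, 5.57 and 4.78 CPM in tau libraries, against 1.15, 1.36 and 1.63 CPM in wild type libraries, with a narrow spread in both groups. These levels rest on 23 to 28 reads per tau library and 7 to 10 reads per wild type library. The log2 change was 1.87 ± 0.35 (edgeR adjusted p = 4.73e-05). No wild type library reached the cutoff of the filter on low counts, so domain 11 was tested only through its tau libraries. Domain 12 (chr19:34660775-34661080) was higher, with a log2 change of 1.21 ± 0.37 (edgeR adjusted p = 0.0197). At the left end of the region, domain 1 held 26.1, 20.6 and 31.5 CPM in tau libraries, against 19.8, 19.1 and 17.7 CPM in wild type libraries. Its tau replicate 2 lay close to the wild type range, and its log2 change of 0.48 ± 0.13 was the least of the 8 called (edgeR adjusted p = 0.00683).

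The other 8 tested domains did not pass the test at 11 months, with a smallest adjusted p of 0.0724. Their log2 changes ran from -0.24 at domain 17 to 0.96 at domain 3 (chr19:34598214-34598401), and 7 of the 8 were above 0. Without tau replicate 3 of 11 months, 4 domains were called, which were domains 11, 13, 15 and 16. Domain 12 also lost its call without wild type replicate 1 or 3. With cross correlation as a covariate, only domain 15 was called (log2 1.66 ± 0.36, edgeR adjusted p = 0.00422), in a fit that called 0.404% of all domains higher. In that fit the log2 changes of the other 7 were still above 0, at 0.60 to 1.66, against 0.48 to 2.05 without the covariate. Domain 1 rose from 0.48 to 0.60, while the rest of the 7 fell, as domain 9 did from 1.23 to 0.66. Standard errors of the 7 were 0.29 to 0.82, against 0.13 to 0.37 without the covariate. Their edgeR adjusted p-values with it were 0.321 to 0.752.

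**Figure D2:**
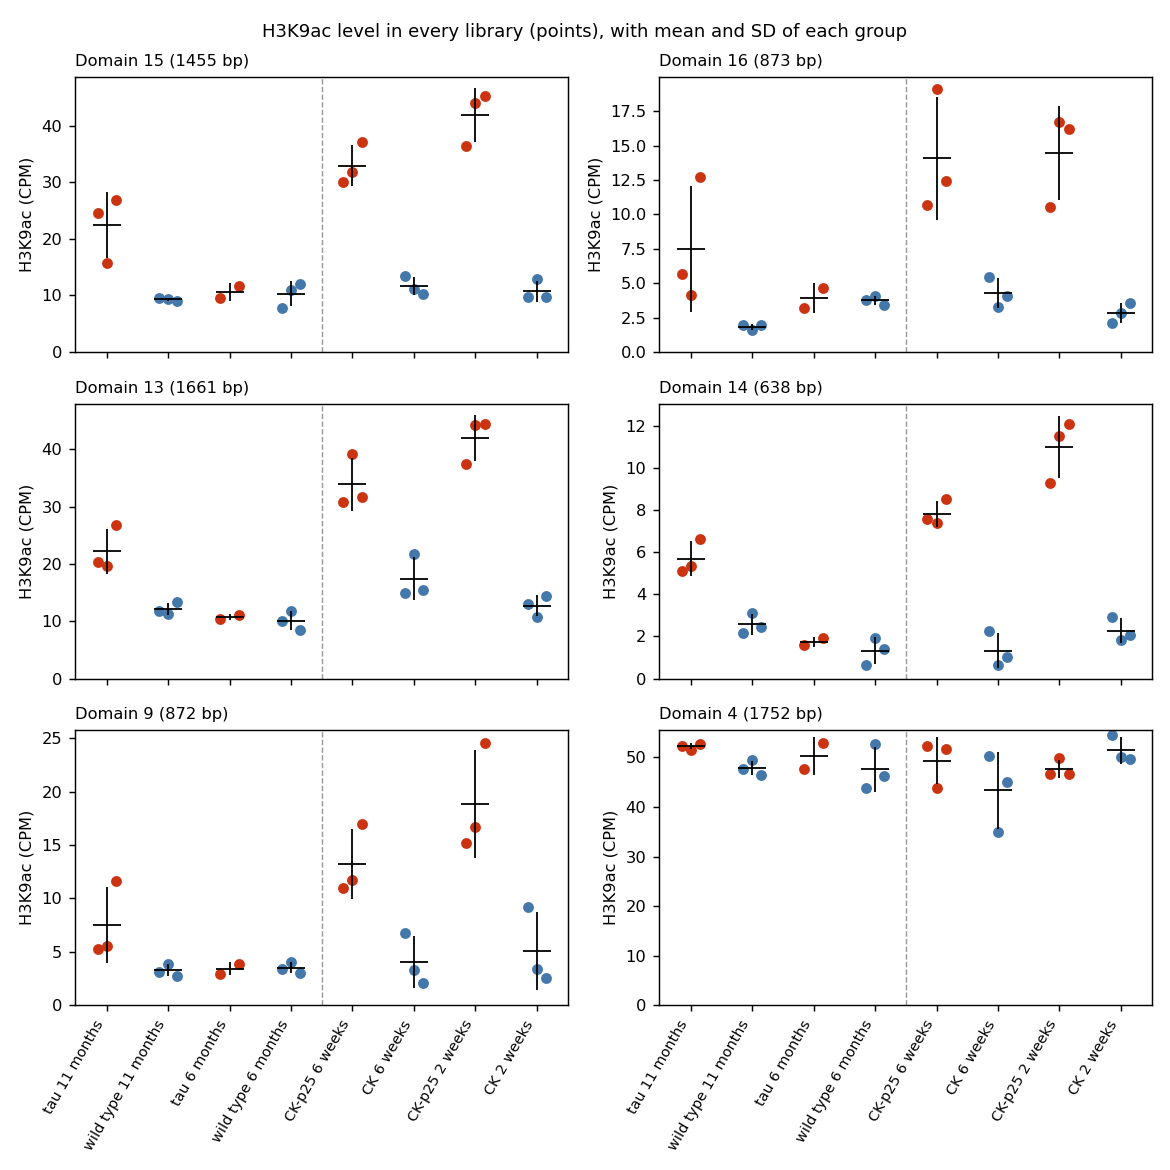
H3K9ac level in CPM (y axis) of 6 domains in each library (points), with the mean and SD of each group (bar and line), for the 8 groups along the x axis, tau series left and CK-p25 series right of the dashed line. Domain 15 sits at 15.8 to 26.9 CPM in tau mice of 11 months and at 30.0 to 37.1 CPM in CK-p25 mice at 6 weeks. At 2 weeks, the comparison from which domain 15 was picked, it has 36.5 to 45.2 CPM in CK-p25 mice. In all other groups it has 7.84 to 13.4 CPM, while domain 4 stays between 34.9 and 54.5 CPM in every library.

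At 6 months no difference between tau and wild type mice was detected in the region. Of the 16 domains tested, 0 were called in either direction by edgeR, 0 by the DESeq2 Wald test and 0 at an unadjusted p under 0.05. Over all domains 0% were called (percent called 0), with 1426 of 44105 at an unadjusted p under 0.05. No domain of the region had both tau libraries above all wild type libraries, where 9.63% of all domains did. Domains 7 and 8 had both tau libraries below all wild type libraries (log2 -0.30 ± 0.25 and -0.74 ± 0.50). The share of all domains that did so was not counted. The median log2 change was -0.02, with a range of -0.74 to 0.68. Domain 15 had 9.48 and 11.7 CPM in tau libraries, against 7.84, 10.9 and 12.1 CPM in wild type libraries. These overlap, and the log2 change was 0.03 ± 0.22 with a 95% interval of -0.40 to 0.46. The interval does not reach the change of 1.29 seen at 11 months. Domain 16 differed by 0.05 ± 0.37 on the log2 scale.

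The tau effect itself was larger at 11 months than at 6 months in run 6. The difference between the effects was 1.26 ± 0.28 on the log2 scale at domain 15 (edgeR adjusted p = 0.00159) and 2.00 ± 0.50 at domain 16 (edgeR adjusted p = 0.00876). These 2 of 16 domains were called, and 1.02% of all domains were called in that direction. At domain 16 wild type levels also differed between the ages, at 1.98, 1.56 and 1.95 CPM at 11 months against 3.81, 4.07 and 3.43 CPM at 6 months, with no overlap. Tau levels of domain 16 overlapped between the ages, at 5.66, 4.12 and 12.7 CPM at 11 months against 3.16 and 4.68 CPM at 6 months. The difference at domain 16 therefore holds a lower wild type level as well as a higher mean tau level at 11 months. That mean is raised by replicate 3. Wild type levels of domain 15 overlapped between the ages. The number called was 1 without tau replicate 3 of 11 months or tau replicate 1 of 6 months, 4 without tau replicate 1 of 11 months and 5 without tau replicate 2 of 11 months. Domain 15 was called in each of these, and was the only one called in the fit with cross correlation.

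After 6 weeks of induction, CK-p25 hippocampus carried more H3K9ac than that of CK littermates at 6 of the 8 domains tested in runs 4, 5 and 6, which were both domains of run 5, both of run 6, and domains 9 and 11 of run 4. Of the 15 domains tested, 6 were called higher and 0 lower (edgeR, adjusted over 38193 domains), where 1.32% of all domains were called higher. All 6 were among the 8 called in tau mice of 11 months. The median log2 change of the 15 was 1.00, beside -0.00 over all domains. All CK-p25 libraries lay above all CK libraries in 10 of the 15, where 8.81% of all domains did so. The 15 include domains 9 to 12 and 14, which passed the filter on low counts only with the help of CK-p25 libraries. Of the 6 called, domains 13, 15 and 16 passed it on CK libraries alone.

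Domain 15 had 30.0, 31.8 and 37.1 CPM in CK-p25 libraries at 6 weeks, against 13.4, 11.2 and 10.3 CPM in CK libraries. The groups were far apart, with a log2 change of 1.39 ± 0.20 (edgeR adjusted p = 5.27e-07), a 2.61-fold difference. Domain 16 had 10.7, 19.1 and 12.4 CPM in CK-p25 libraries, against 5.44, 3.29 and 4.10 CPM in CK libraries. Its log2 change was 1.60 ± 0.32 (edgeR adjusted p = 0.000396), with no overlap. Domain 13 had 30.7, 39.2 and 31.7 CPM in CK-p25 libraries, against 15.0, 21.7 and 15.4 CPM in CK libraries, a log2 change of 1.00 ± 0.18 (edgeR adjusted p = 0.000116). Domain 14 had 7.56, 7.37 and 8.50 CPM in CK-p25 libraries, against 2.24, 0.658 and 1.03 CPM in CK libraries. Its CK levels rest on 1 to 7 reads per library, and its log2 change of 2.24 ± 0.45 (edgeR adjusted p = 0.000501) was the greatest of the 15. No CK library reached the cutoff of the filter on low counts, so domain 14 was tested only through its CK-p25 libraries.

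Domain 9 had 11.0, 11.7 and 17.0 CPM in CK-p25 libraries at 6 weeks, against 6.72, 3.29 and 2.05 CPM in CK libraries, a log2 change of 1.32 ± 0.34 (edgeR adjusted p = 0.0151). Domain 11 had 7.07, 6.70 and 3.09 CPM in CK-p25 libraries, against 1.28, 4.61 and 0 CPM in CK libraries. It was the only called domain here whose groups overlapped, with a log2 change of 1.64 ± 0.48 (edgeR adjusted p = 0.0389). Its 0 is in CK replicate 3, the shallowest library with 0.996 M reads in domains, where a count of 0 allows a level of up to 3.01 CPM before TMM scaling. Without CK replicate 3, domains 9 and 11 lost their calls and 4 remained (domains 13 to 16), as they did without both libraries labelled replicate 3 at 6 weeks. Domain 9 was also lost without CK replicate 2 or CK-p25 replicate 3, and domain 11 without CK replicate 1 or CK-p25 replicate 1 or 2. Domains 1 and 12, called in tau mice of 11 months, had log2 changes of 0.22 ± 0.19 and 1.37 ± 0.47 here (edgeR adjusted p = 0.717 and 0.101).

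The remaining domains did not pass the test at 6 weeks. Among those outside the 8 described in full, the log2 change ran from -0.84 ± 0.34 at domain 2 (chr19:34597428-34598063) to 1.77 ± 0.79 at domain 10 (chr19:34659519-34659627), and the smallest adjusted p was 0.112. Domain 2 had 6.34, 4.02 and 1.55 CPM in CK-p25 libraries, against 7.68, 9.21 and 9.23 CPM in CK libraries, with no overlap (edgeR adjusted p = 0.227). Domain 17 had a log2 change of -0.09 ± 0.21 and domain 4 one of 0.14 ± 0.13.

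At 2 weeks, the comparison from which the region was picked, domain 15 had 36.5, 44.1 and 45.2 CPM in CK-p25 libraries, against 9.64, 12.9 and 9.74 CPM in CK libraries, a 3.72-fold difference. The median log2 change of the 15 domains was 1.24, with a range of -0.26 to 2.33. Domain 16 had a log2 change of 2.33, domain 14 of 2.28, domain 9 of 1.89 and domain 13 of 1.76. In run 3, domains 6 and 7 had log2 changes of 1.24 and 0.97, beside 0.53 ± 0.29 and 0.70 ± 0.24 at 6 weeks, where neither passed the test.

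**Figure D3:**
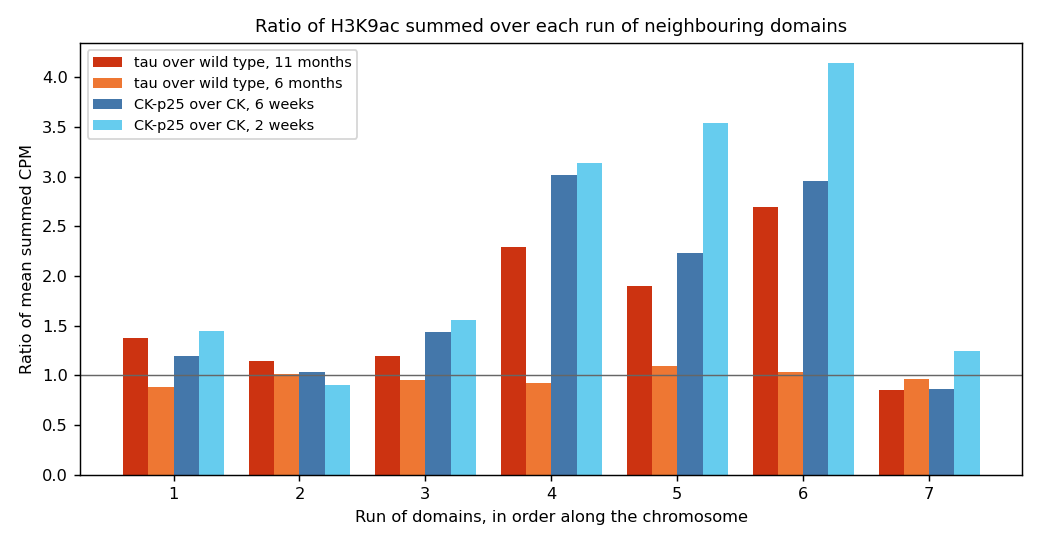
Ratio of the mean summed CPM of tau to wild type or of CK-p25 to CK (y axis, from 0) for each of the 7 runs of domains in order along the chromosome (x axis), one bar per comparison, with the line at 1 marking equal levels. Runs 4, 5 and 6 have ratios of 1.90 to 4.14 in all comparisons but tau at 6 months, where they are 0.923 to 1.09.

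Summed over a run, acetylation in tau mice of 11 months was 2.29 times the wild type level in run 4, 1.90 times in run 5 and 2.69 times in run 6. In CK-p25 mice at 6 weeks it was 3.02, 2.23 and 2.96 times the CK level in runs 4, 5 and 6. The other runs had lower ratios in these 2 comparisons. Run 1 had ratios of 1.38 and 1.19, run 2 of 1.14 and 1.03, run 3 of 1.19 and 1.44, and run 7 of 0.851 and 0.866, each given for tau mice of 11 months and then CK-p25 mice at 6 weeks. The region took 0.0225 ± 0.00327% of reads in domains in tau and 0.0156 ± 0.000570% in wild type mice of 11 months (SD, n = 3 each). Its share was 0.0157 ± 0.00165% in tau (n = 2) and 0.0160 ± 0.00118% in wild type mice of 6 months (n = 3). At 6 weeks it was 0.0266 ± 0.000756% in CK-p25 and 0.0171 ± 0.00186% in CK mice (SD, n = 3 each).

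Ordered by level, domain 15 in the tau series was highest in tau mice of 11 months (22.4 ± 5.88 CPM, n = 3), followed by tau mice of 6 months (10.6 ± 1.57 CPM, n = 2), wild type mice of 6 months (10.3 ± 2.21 CPM, n = 3) and wild type mice of 11 months (9.28 ± 0.311 CPM, n = 3). The last 3 groups overlapped. In the CK-p25 series the order was CK-p25 at 2 weeks (41.9 ± 4.74 CPM), CK-p25 at 6 weeks (33.0 ± 3.69 CPM), CK at 6 weeks (11.6 ± 1.64 CPM) and CK at 2 weeks (10.8 ± 1.86 CPM, SD, n = 3 each). The CK-p25 groups overlapped with each other, as did the CK groups.

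Median log2 changes were smaller outside the region. The 8 domains within 300 kb on either side had medians of 0.22 in tau mice of 11 months and 0.11 in CK-p25 mice at 6 weeks. The region had 0.77 and 1.00. Single flanking domains ranged from -0.20 to 0.78 at 11 months and from -0.12 to 0.32 at 6 weeks. Of these 8, edgeR called 1 higher at 11 months at an adjusted p under 0.05, the nearest domain to the right (chr19:34820949-34822226, log2 0.55). It called 0 at 6 weeks, with 0 at an unadjusted p under 0.05 there. Over all domains, 4.40% were called higher at 11 months and 1.32% at 6 weeks. For the difference of the tau effect between ages, edgeR called 1 of the 8 higher (chr19:34995926-34997210, log2 0.62, edgeR adjusted p = 0.0185). In the region it called 2 of 16, and 1.02% of all domains. Just inside the borders, domain 1 and domain 17 had log2 changes of 0.48 and -0.24 at 11 months and 0.22 and -0.09 at 6 weeks. Just outside, the nearest domain to the left (chr19:34364999-34366319) had 0.29 and 0.25, and the nearest to the right 0.55 and 0.04.

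**Figure D4:**
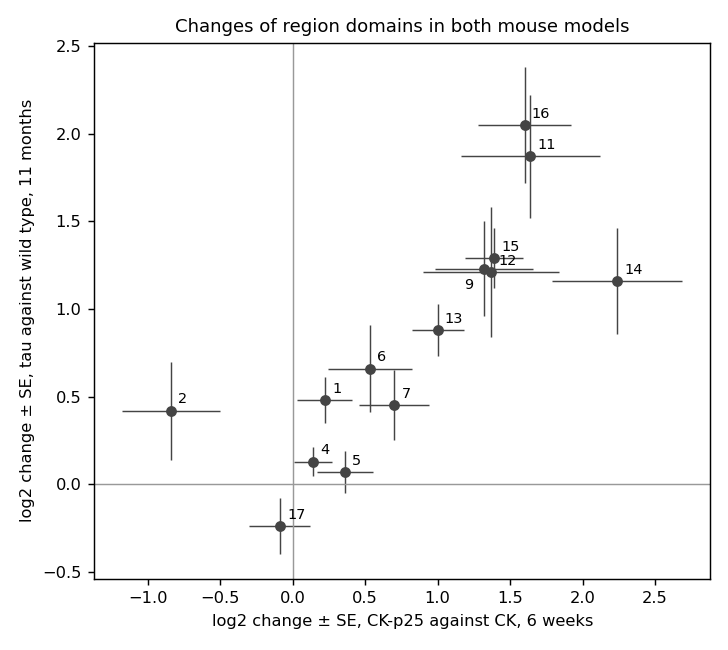
Log2 change with its standard error in tau mice of 11 months (y axis) against that in CK-p25 mice at 6 weeks (x axis) for the 14 domains tested in both, labelled by domain number. Domains of runs 4 to 6 (9 and 11 to 16) lie at 0.88 or more on both axes, and domain 2 is the one whose signs differ.

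The tau comparison at 11 months and the CK-p25 comparison at 6 weeks share no library. Over the 14 domains tested in both, 13 had the same sign and Spearman's rho of the log2 changes was 0.86. That is a description across neighbouring domains that are not independent. The 14 include domains 9, 11, 12 and 14, which passed the filter on low counts only with the help of tau or CK-p25 libraries. A stretch of 1 Mb on chromosome 7, listed with the processing, held 8 domains. By edgeR, 7 were called higher in tau mice of 11 months (median log2 1.29), where 4.40% of all domains were. In CK-p25 mice at 6 weeks 5 were called higher (median 1.10), where 1.32% of all domains were. In tau mice of 6 months 0 were called (median -0.02), as over all domains.

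The domains whose levels followed domain 15 most closely lay elsewhere. By the smaller of 2 Pearson correlations of log2 CPM, over the 11 tau series and the 12 CK-p25 series libraries and among 38167 domains, the 5 most alike were chr6:31075270-31077035, chr17:34334277-34336104, chr11:118261276-118264154, chr6:121194991-121197321 and chr19:12535693-12538254. Their correlations were 0.94 to 0.96 in the tau series and 0.95 to 0.97 in the CK-p25 series. Their log2 changes were 0.63 to 1.21 in tau mice of 11 months, 0.71 to 1.50 in CK-p25 mice at 6 weeks and -0.03 to 0.11 in tau mice of 6 months. Within the region, domain 9 was the most alike (0.86 and 0.89), while domains 2 and 17 were not (0.23 and -0.59 for domain 2, -0.42 and 0.08 for domain 17). The libraries of a series share its model and control groups, and no p is given for these values. The 12 CK-p25 series libraries include those at 2 weeks, from which domain 15 was picked. Whether low read counts lowered the correlations of other domains in the region was not tested.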

How the data were processed

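The authors deposited raw read counts per domain for 23 H3K9ac libraries, with no normalization, and a domain list whose score column is 0 throughout and was not used. The 22 input libraries were not analysed here. BWA, Picard and MACS2 were used on mm9, per the submitters' processing notes. Per the series' design text, domains were called against input DNA and reads were then counted over 1 common set.

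Counts of all domains passing filterByExpr entered edgeR 4.0.16 under R 4.3.3 (quasi-likelihood F test, TMM factors, group means without other terms), separately for the 11 tau series and 12 CK-p25 series libraries. P-values were two-sided with Benjamini-Hochberg adjustment over all domains tested and a threshold of 0.05. Standard errors are the log2 change over the square root of F. The fit was tested on simulated counts. Alternatives were other scalings, no filter, the DESeq2 1.42.0 Wald test, the compared groups alone, cross correlation as a covariate, a replicate block, autosomes alone and each library left out. Replicate pairs differed by more than sampling noise (chi-square per degree of freedom 1.10 to 1.88 over 22 pairs), so none was treated as a duplicate. Limits for a count of 0 take 3 counts and cover counting error only.

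The region is chr19:34500000-34800000 on mm9, domain 15 is chr19:34714541-34715995, and the stretch of chromosome 7 set beside it runs from 111 to 112 Mb. The members and lists were chosen with earlier results of these data known. Domain 15 and every domain with an adjusted p under 0.05 in a tested comparison of model and control (at most 10) are described in full, and the others by count and range. Promoter sequences are from RefSeq (GRCm38.p6), and all 9 genes of the stretch matched by symbol.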

Additional observations from a re-analysis of the deposited data

Results flagged for a closer look

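The tau effect differed between the ages at 2 domains. At domain 15 the effect at 11 months exceeded that at 6 months by a log2 difference of 1.26 ± 0.28 (edgeR adjusted p = 0.00159), with all 3 tau libraries above all wild type libraries at 11 months and the groups overlapping at 6 months. At domain 16 (chr19:34716217-34717089) the difference was 2.00 ± 0.50 (edgeR adjusted p = 0.00876), and wild type levels averaged 1.83 CPM at 11 months and 3.77 CPM at 6 months. The mice of 11 months were male and those of 6 months female, so age and sex cannot be told apart. The call at domain 16 was lost without tau replicate 3 of 11 months (log2 difference 1.37, edgeR adjusted p = 0.125) or tau replicate 1 of 6 months (1.74, edgeR adjusted p = 0.0997), and that at domain 15 held with each library left out.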

How the results depend on the processing

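Under the alternatives, the log2 changes of the 8 domains described in full stayed above 0 at 11 months and at 6 weeks. The lowest were 0.33 and 0.12, both at domain 1. At 6 months, where none was called, signs varied, as at domain 15 (-0.13 to 0.19). At 11 months the number of region domains called in tau mice was 8, against 1 with cross correlation as a covariate, 4 to 9 with 1 library left out and 5 with the DESeq2 Wald test, which gave the other 3 no adjusted p. With the covariate all 8 log2 changes stayed above 0 (0.60 to 1.66), and the standard errors were larger. All but those of domains 1 and 15 were smaller than without it. The number called for the difference between ages was 2, against 1 with the covariate, 1 with DESeq2 (which gave the other no adjusted p), 4 with library totals and 1 to 5 with 1 library left out. At 6 weeks it was 6, and 4 to 6 with 1 library left out. Calls at 2 weeks are not reported, since the region was picked from that comparison. At 6 months it was 0 under every alternative run. Without domain 15, the region's share of reads differed between CK-p25 and CK by 0.0102 percentage points at 2 weeks, against 0.0133 with it, and by 0.00738 at 6 weeks, against 0.00951. That is fewer domains summed. With the replicate number as a block the counts were 8, 0, 6 and 3 at 11 months, 6 months, 6 weeks and for the age difference. The correlation of deviations of libraries with the same number was -0.013 to 0.050 over 11 pairs, which cannot exclude pairing. At 6 weeks depth fell with replicate number in both groups, from 3.16 to 1.55 and 0.996 M reads in CK and from 4.09 to 3.01 and 1.31 M in CK-p25. Another scaling moved the median log2 change of all domains by at most 0.05. Narrow domains of run 4 rest on few reads, down to 0 in CK libraries at 6 weeks, which limits what could be called there.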
